A study of Danio rerio with 4 samples.

Results

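Protocadherins are cadherin-like adhesion molecules that vertebrate neurons carry in large variety. The members described here were the rows of the raw count table whose gene name starts with pcdh and whose counts add up to 20 or more over the 4 libraries: 54 of 58 such rows, in a table of 23236 rows. They carried 53 names, since pcdh20 stood on 2 rows, and fell into 36 clustered and 18 non-clustered rows. The set of members was chosen with earlier results of these data known, so its numbers of lower and higher genes are descriptions. Among the pcdh rows, members were chosen by their total of counts, and the difference between the groups did not enter that rule. Just outside it were pcdh2ab2 with a total of 12 counts, pcdh2aa1 with 5, pcdh2ab3 with 4 and pcdh2ac with 0. Just inside it were pcdh2ab6 and pcdh2ab7 with 53 each and pcdh2ab5 with 59.

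The study compared whole zebrafish embryos (Danio rerio, strain AB) collected at 7 days post fertilisation (dpf). Crosses of tubgcp6 heterozygotes gave tubgcp6 mutants and siblings, which were sorted by genotyping and received no further treatment, with 2 libraries from each group. The product of tubgcp6 is part of the gamma-tubulin ring complex, from which microtubules grow. The titles call the 2 libraries of each group biological replicates. The lesion, the genotypes among the siblings, the number of embryos in a library and whether clutches were shared are not stated in the labels. The p-values therefore cover no more than the spread among these 4 libraries, which may leave out the spread between clutches. Libraries held between 14246582 and 20652276 counts. The mutated gene itself was at a log2 fold change (mutant over sibling throughout) of -0.33 ± 0.10 (SE), with a Benjamini-Hochberg adjusted p of 0.0123 from the quasi-likelihood test of edgeR. That call was lost in DESeq2 (adjusted p = 0.0585) and, in edgeR, without sibling replicate 2 (-0.25, adjusted p = 0.267).

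Protocadherins fall into a clustered and a non-clustered kind. In the clustered kind, variable exons stand in tandem upstream of constant exons that they share by splicing, and each variable exon has its own promoter. In mice, single neurons switch on different combinations of these promoters with the help of CTCF and cohesin, and the resulting surface codes let the branches of a neuron recognise and avoid each other. Zebrafish carry a pair of such clusters, whose genes are named pcdh1 and pcdh2 followed by a for alpha or g for gamma; in the RefSeq assembly GRCz12tu they lie on chromosomes 10 and 14, whereas tubgcp6 lies on chromosome 25 and 0 of the 46 members matched there do. Non-clustered genes encode whole proteins on their own, among them the δ1 and δ2 protocadherins of developing neural circuits and some members with particular jobs in hair cells, the retina or vessels. The genes pcdh1a and pcdh1b, despite their names, are δ1 paralogues and are counted here as non-clustered.

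Several clustered genes could not be read apart. The rows of pcdh2g13, pcdh2g16, pcdh2g17, pcdh2g28 and pcdh2g29 held the same 4 counts, as did pcdh2ab6 and pcdh2ab7, pcdh2ab8 and pcdh2aa3, and pcdh2ab9 and pcdh2ab11. These 11 rows are 4 independent values, which leaves 47 distinct sets of counts among the 54 rows, 29 of them clustered. The row of pcdh1a6 also equalled that of a gene outside the family, zgc:123181. Over the whole table, protocadherins included, such repeats were rare: of 18709 rows with a total of 100 or more, 191, or 1.02%, shared all 4 counts with another row. The rows of pcdh2ab6 and pcdh2ab7, with totals of 53, lie below that cut. How the reads of overlapping genes or of shared exons were assigned is not given in the sources used here, so every value of a clustered gene may include reads of its neighbours.

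Of the 54 rows 25 fell, 1 rose and 28 did not pass the threshold, an adjusted p of 0.05 by the same test; counting identical rows once, 24 fell, 1 rose and 22 did not pass. Over all 20097 genes tested, 43.9% were called, 21.0% as lower and 22.9% as higher. The point estimate was below 0 in 51 of the 54 rows, or 44 of the 47 distinct sets of counts. Over all genes tested it was below 0 in 9917. In whole embryos, fewer cells of a type and less RNA per cell cannot be told apart. The median log2 fold change was -0.52 for the clustered and -0.33 for the non-clustered rows, against 0.0072 for all genes, and the difference between the kinds was not tested.

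All 54 rows passed the edgeR filter on low counts. Clustered rows had a median total of 300.5 counts and a median SE of 0.24 on the log2 scale; non-clustered rows had 2802 counts and an SE of 0.11. Of the 36 clustered rows 15 fell, 0 rose and 21 did not pass, and of the 18 non-clustered rows 10 fell, 1 rose and 7 did not pass. Both mutant libraries were below both sibling libraries in 31 clustered and 12 non-clustered rows, a pattern shown by 35.1% of all genes tested. Counting identical rows once, this held for 24 of 29 clustered rows, and 14 of the 29 fell. Both mutant libraries were above both siblings in 0 clustered and 2 non-clustered rows, against 36.6% of all genes. The 0 rises among clustered rows held at an adjusted p of 0.05 in edgeR and in DESeq2, and at an unadjusted p under 0.05 in edgeR the count was also 0. DESeq2 called 9 clustered rows lower in place of 15. Over all genes it called 2916 of 21160 lower and 3207 higher, against 4225 and 4595 of 20097 in edgeR. Leaving out sibling replicate 2, which leaves 1 sibling library, gave fewer lower calls in the family and in the whole table. The median log2 fold change was then -0.46 for clustered and -0.27 for non-clustered rows.

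**Figure D1:**
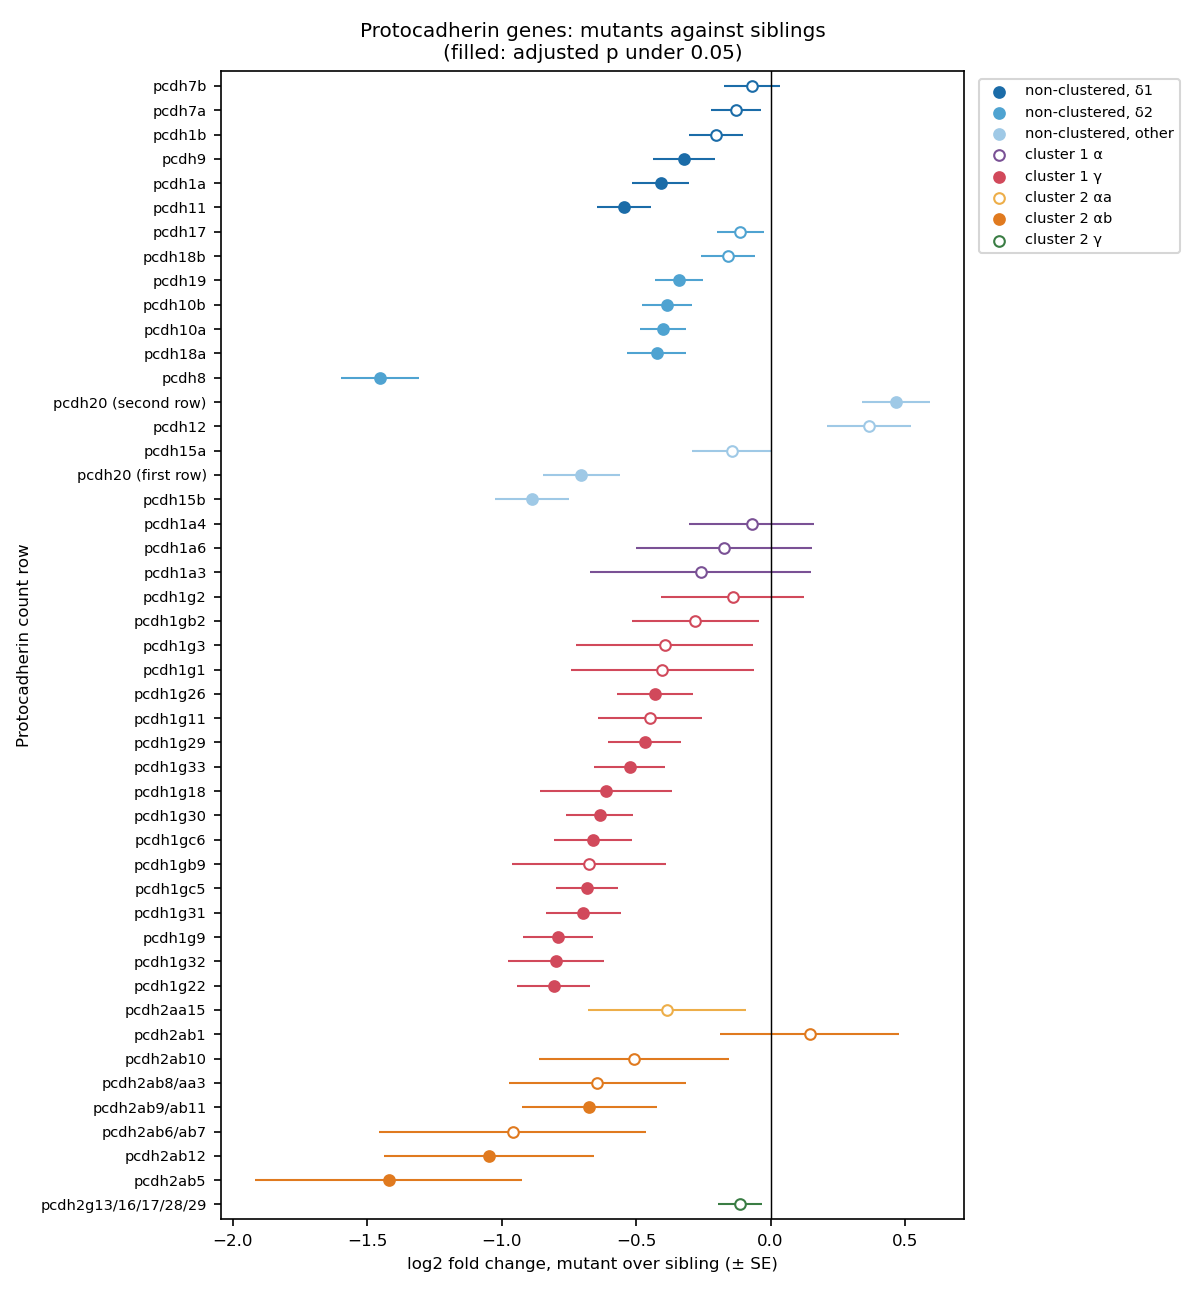
Log2 fold change of mutants over siblings (x axis, ± SE) for the 47 distinct sets of protocadherin counts (y axis), coloured by subfamily, with filled points where edgeR's adjusted p was under 0.05. Points lie left of 0 except for pcdh2ab1, pcdh12 and the second row of pcdh20, and the cluster 1 gamma genes lie between -0.81 and -0.14.

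The gamma genes of cluster 1 had the most calls among the subfamilies, which also differ in their number of rows. Summed over 17 rows, they held 2344 and 2708 counts in mutants and 3044 and 4637 counts in siblings. Scaled to a common library total (CPM), the sums were 139 and 149 in mutants and 216 and 225 in siblings. The mutant sums lay below both sibling sums by more than the distance between replicates, with means of 144 ± 7.48 and 220 ± 6.52 CPM (SD, n = 2 each), or 34.7% lower in mutants. Of the 17 rows, 11 fell, 0 rose and 6 did not pass in edgeR's quasi-likelihood test. Over all genes tested, 21.0% were called lower and 22.9% higher. In 16 of the 17 rows both mutant libraries lay below both siblings, a pattern shown by 35.1% of all genes.

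The gene with the smallest p among them, pcdh1g9, stood at 11.8 and 13.6 CPM in mutants and 22.7 and 21.3 CPM in siblings. It fell by 0.79 ± 0.13 on the log2 scale (edgeR adjusted p = 1.22e-05). The gene pcdh1g22 stood at 12.4 and 10.9 CPM in mutants and 19.2 and 21.4 CPM in siblings, and fell by 0.81 ± 0.13 (edgeR adjusted p = 1.42e-05). In both genes each mutant library was well below each sibling library. The C-type gene pcdh1gc5, one of a pair named pcdh1gc, stood at 17.1 and 18.8 CPM in mutants and 28.5 and 29.2 CPM in siblings and fell by 0.68 ± 0.12 (edgeR adjusted p = 1.78e-05). In mice, C-type genes are the ones that most neurons use, in contrast to the stochastic choice among the other variable exons. The second one here, pcdh1gc6, stood at 10.8 and 10.5 CPM in mutants and 14.8 and 18.5 CPM in siblings and fell by 0.66 ± 0.15 (edgeR adjusted p = 0.000451). Leaving out sibling replicate 2 ended that call (edgeR adjusted p = 0.075).

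The other gamma genes of cluster 1 that fell followed within a narrow range. They were pcdh1g32 (-0.80 ± 0.18), pcdh1g31 (-0.70 ± 0.14), pcdh1g30 (-0.64 ± 0.13), pcdh1g18 (-0.61 ± 0.25), pcdh1g33 (-0.52 ± 0.13), pcdh1g29 (-0.47 ± 0.14) and pcdh1g26 (-0.43 ± 0.14), given as log2 fold change ± SE. The calls of pcdh1g18, pcdh1g26 and pcdh1g29 were the loose ones. That of pcdh1g18 was lost in DESeq2 (adjusted p = 0.208) and in edgeR without mutant replicate 2, sibling replicate 1 or sibling replicate 2 (adjusted p = 0.19, 0.11 and 0.202). That of pcdh1g26 was lost in DESeq2 (adjusted p = 0.0765) and in edgeR without mutant replicate 1 (-0.28, adjusted p = 0.107), sibling replicate 1 (0.0994) or sibling replicate 2 (0.0596). That of pcdh1g29 was lost in edgeR without sibling replicate 1 or 2 (adjusted p = 0.0618 and 0.0512).

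The 6 that did not pass were pcdh1g11 (-0.45 ± 0.19), pcdh1gb9 (-0.68 ± 0.29), pcdh1g1 (-0.40 ± 0.34), pcdh1g3 (-0.39 ± 0.33), pcdh1gb2 (-0.28 ± 0.23) and pcdh1g2 (-0.14 ± 0.27). Their totals ran from 118 counts in pcdh1g1 to 474 in pcdh1g11, and the mutant and sibling libraries of pcdh1g2 overlapped. Both values nearest to the threshold depended on single libraries. With 1 library left out, pcdh1g11 ran from -0.69 (without mutant replicate 1, edgeR adjusted p = 0.0071) to -0.24 (without mutant replicate 2, adjusted p = 0.35). Likewise pcdh1gb9 ran from -1.02 (without mutant replicate 2, edgeR adjusted p = 0.0106) to -0.30 (without sibling replicate 2, adjusted p = 0.634), and it was also called without sibling replicate 1 (-0.91, adjusted p = 0.0207). Among the 9 cluster 1 gamma rows with 900 or more counts, 9 fell, with log2 fold changes between -0.81 and -0.43 and SEs between 0.12 and 0.15. Among the 8 rows with fewer counts 2 fell, and the SEs ran from 0.18 to 0.34. The part of depth in the number of calls was not tested.

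**Figure D2:**
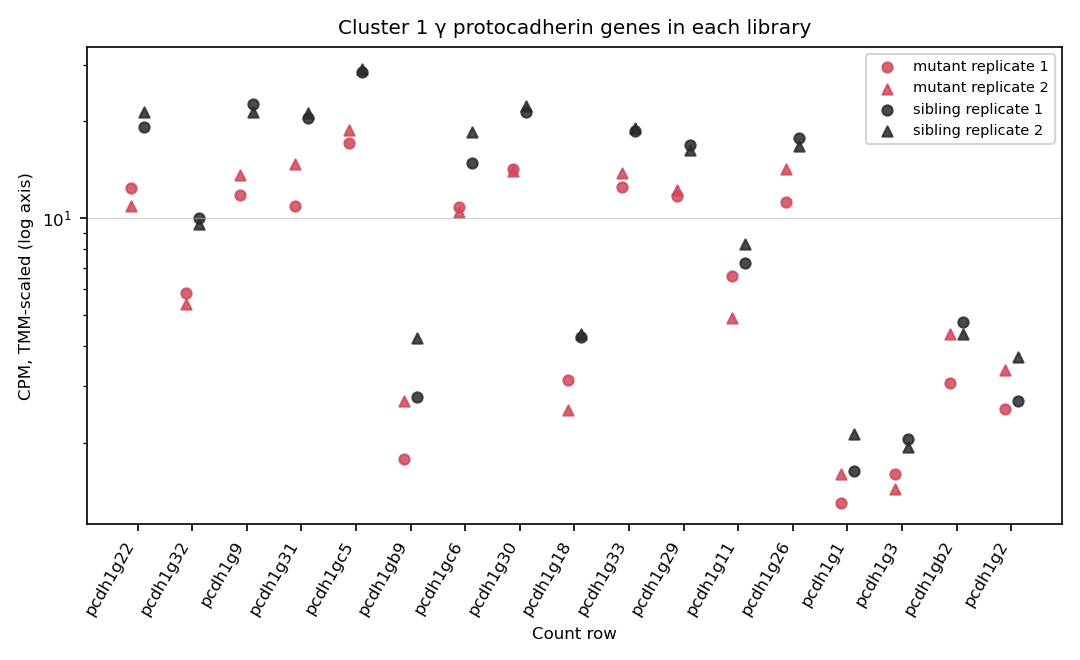
TMM-scaled CPM on a log axis for the 17 cluster 1 gamma rows in each of the 4 libraries (red, mutants; black, siblings; circles and triangles, replicates 1 and 2), ordered by log2 fold change. Red points lie below black points in every row except pcdh1g2; levels of different genes are not corrected for length and are not comparable.

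Along the chromosome, the genes at the pcdh1g1 end of the array had the smallest point estimates. For 15 of the 17 rows the RefSeq assembly GRCz12tu gave the order of their start positions, used without coordinates; where the constant exons lie was not determined. The first 4 in order, a group chosen after their values were seen, were pcdh1g1, pcdh1g2, pcdh1g3 and pcdh1gb2. They had log2 fold changes from -0.40 to -0.14, and the other 11 genes from -0.80 to -0.43. Across these 15 genes the Spearman correlation of order with log2 fold change was -0.69, as a description. Order went together with depth, with a correlation of 0.66 between order and total counts and of -0.57 between total counts and log2 fold change. The first 4 had 118 to 288 counts each and a median SE of 0.30, against 0.14 for the other genes, and the part of depth in this pattern was not tested.

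**Figure D3:**
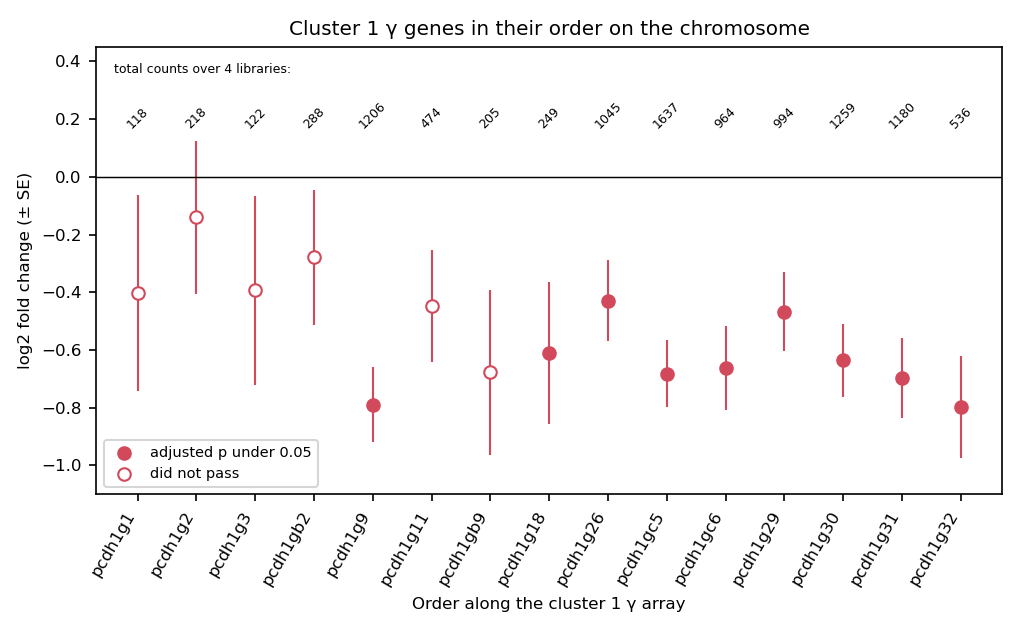
Log2 fold change (y axis, ± SE) of the 15 cluster 1 gamma genes with a known order, sorted by start position in GRCz12tu from pcdh1g1 (left) to pcdh1g32 (right), with total counts printed above. The 4 genes at the left have -0.40 to -0.14 with wide errors, and 9 of the other 11 passed the test.

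The alpha genes of cluster 1 did not show a difference beyond their error. Counts of pcdh1a4 were 61 and 77 in mutants and 63 and 80 in siblings, which is 3.61 and 4.24 CPM against 4.46 and 3.88 CPM. Its log2 fold change was -0.07 ± 0.23 (edgeR adjusted p = 0.835). The row of pcdh1a6 was at -0.17 ± 0.33 and that of pcdh1a3, with 81 counts in all, at -0.26 ± 0.41. In each of these 3 rows the mutant and sibling libraries overlapped. For pcdh1a4 the ratio of counts per scaled library was 0.956 with a 95% interval of 0.751 to 1.22 (exact binomial, counting error only). Gamma genes of cluster 1 with similar totals were mixed. Intervals included 1 for pcdh1gb2 (288 counts, 0.65 to 1.05) and pcdh1g2 (218 counts, 0.686 to 1.19). Intervals lay below 1 for pcdh1g18 (249 counts, 0.502 to 0.848) and pcdh1gb9 (205 counts, 0.463 to 0.829).

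Cluster 2 was read mainly through 1 gamma value. The counts shared by pcdh2g13, pcdh2g16, pcdh2g17, pcdh2g28 and pcdh2g29 were 3402 and 3664 in mutants and 2980 and 4635 in siblings, or 201 and 202 CPM in mutants and 211 and 225 CPM in siblings. Both mutant libraries lay below both sibling libraries, but by less than the test requires, with a log2 fold change of -0.11 ± 0.08 (edgeR adjusted p = 0.269). With 14681 counts it had the smallest SE in the family. Within a library, the ratio of the summed cluster 1 gamma CPM to this value was 0.689 and 0.739 in mutants and 1.021 and 1.0 in siblings. The ratios of the groups did not overlap, and this difference was not tested.

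The alpha genes of cluster 2 had few counts. Summed over 7 distinct rows of the pcdh2ab series they stood at 8.28 and 11.3 CPM in mutants and 13.4 and 16.7 CPM in siblings, without overlap, but replicates differed by more than the gap between the nearest libraries of the groups. The counts shared by pcdh2ab9 and pcdh2ab11 were 39 and 82 in mutants and 68 and 124 in siblings, and fell by 0.67 ± 0.25 on the log2 scale (edgeR adjusted p = 0.0298). The size rested on mutant replicate 1: without it the value was -0.30 (adjusted p = 0.35) and without mutant replicate 2 it was -1.26. The call was also lost without sibling replicate 2 (adjusted p = 0.272) and in DESeq2 (adjusted p = 0.163).

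Fewer counts still stood behind pcdh2ab5 and pcdh2ab12. Counts of pcdh2ab5 were 8 and 8 in mutants and 11 and 32 in siblings; the ratio per scaled library was 0.369 (95% interval 0.194 to 0.668), and its log2 fold change was -1.42 ± 0.50 (edgeR adjusted p = 0.021). Without sibling replicate 2 it was -0.76 (adjusted p = 0.496), and the call was lost without mutant replicate 2 (adjusted p = 0.059) and in DESeq2 (adjusted p = 0.187). Counts of pcdh2ab12 were 18 and 13 in mutants and 20 and 44 in siblings, with a log2 fold change of -1.05 ± 0.39 (edgeR adjusted p = 0.0299). Without sibling replicate 2 it was -0.68 (adjusted p = 0.406), without mutant replicate 2 it was -0.79 (adjusted p = 0.159), and DESeq2 gave an adjusted p of 0.209. Leaving out sibling replicate 2, with its 32 and 44 counts, thus made both estimates smaller, and both stayed negative.

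The remaining alpha rows of cluster 2 did not pass. They were the shared row of pcdh2ab6 and pcdh2ab7 (-0.96 ± 0.50), the shared row of pcdh2ab8 and pcdh2aa3 (-0.64 ± 0.33), pcdh2ab10 (-0.51 ± 0.35), pcdh2aa15 (-0.38 ± 0.29) and pcdh2ab1 (0.15 ± 0.33). The last was the one clustered row with a point estimate above 0, and its libraries overlapped.

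Among non-clustered genes, the δ1 protocadherins, which in other vertebrates guide axons and mark subsets of neurons, were called lower in part. Of these 6, 3 fell, 0 rose and 3 did not pass, against 21.0% lower and 22.9% higher over all genes. The δ1 genes had a median log2 fold change of -0.26. The gene pcdh11 stood at 31.0 and 31.9 CPM in mutants and 45.6 and 46.2 CPM in siblings. These libraries were tight within groups and apart between them, and pcdh11 fell by 0.54 ± 0.10 (edgeR adjusted p = 5.05e-05). The gene pcdh1a stood at 31.7 and 39.7 CPM in mutants and 47.0 and 47.8 CPM in siblings and fell by 0.41 ± 0.11 (edgeR adjusted p = 0.00244), or -0.27 without mutant replicate 1, where the call was kept. The gene pcdh9 stood at 27.2 and 36.3 CPM in mutants and 38.4 and 41.1 CPM in siblings, so its second mutant library lay close to the siblings. It fell by 0.32 ± 0.12 (edgeR adjusted p = 0.0234), a call lost in DESeq2 (adjusted p = 0.0975), without mutant replicate 1 (-0.14, adjusted p = 0.264) and without either sibling library (adjusted p = 0.0525 and 0.21); without mutant replicate 2 its value was -0.55.

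The δ1 paralogues pcdh1b, pcdh7a and pcdh7b did not pass. They were at -0.20 ± 0.10, -0.13 ± 0.09 and -0.07 ± 0.10; for pcdh1b mutant libraries at 65.0 and 82.5 CPM overlapped with siblings at 80.5 and 89.3 CPM. Here the 2 mutant libraries differed by more than the group means. Without mutant replicate 2, pcdh1b was at -0.39 (edgeR adjusted p = 2.7e-05) and pcdh7a at -0.21 (edgeR adjusted p = 0.039), calls that were not made with both libraries.

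The δ2 protocadherins, some of which bind the actin-regulating WAVE complex through their cytoplasmic tails, included the row with the lowest fold change of the family. Of these 7, 5 fell, 0 rose and 2 did not pass, against 21.0% lower and 22.9% higher over all genes. The δ2 genes had a median log2 fold change of -0.38. The gene pcdh8, known as paraxial protocadherin for its part in gastrula movements and somites and in mammals found at synapses, had counts of 157 and 130 in mutants and 324 and 454 in siblings. That is 9.28 and 7.16 CPM against 23.0 and 22.0 CPM, less in either mutant library than in both siblings by a wide margin. It fell by 1.45 ± 0.14 on the log2 scale, to 0.365 times the sibling level (edgeR adjusted p = 1.39e-09), and no library left out changed the call.

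The other δ2 falls were similar to one another in size. The paralogues pcdh10a (84.2 and 89.4 CPM in mutants, 115 and 114 CPM in siblings) and pcdh10b (61.5 and 71.6 CPM, 84.4 and 89.3 CPM) fell by 0.40 ± 0.09 and 0.38 ± 0.09. In mice Pcdh10 is needed for striatal and thalamocortical axon growth. The gene pcdh19, whose human counterpart is mutated in an epilepsy of girls and which in zebrafish marks columns of neurons in the optic tectum, stood at 73.1 and 73.3 CPM in mutants and 88.1 and 97.2 CPM in siblings and fell by 0.34 ± 0.09 (edgeR adjusted p = 0.00243). The gene pcdh18a stood at 22.3 and 23.7 CPM in mutants and 30.6 and 31.1 CPM in siblings and fell by 0.42 ± 0.11 (edgeR adjusted p = 0.00232). In each of these 4 genes both mutant libraries lay below both siblings. The edgeR calls of pcdh10b, pcdh19 and pcdh18a were lost without sibling replicate 2 (adjusted p = 0.0624, 0.161 and 0.0549), and that of pcdh10a was kept under every alternative.

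The δ2 genes that did not pass were pcdh17 at -0.11 ± 0.09 and pcdh18b, which shapes motor axon branching in zebrafish, at -0.16 ± 0.10. For pcdh18b mutant libraries at 49.9 and 60.6 CPM overlapped with siblings at 65.3 and 58.3 CPM. Without mutant replicate 2 both were called lower, at -0.19 and -0.31 (edgeR adjusted p = 0.0389 and 0.00278).

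**Figure D4:**
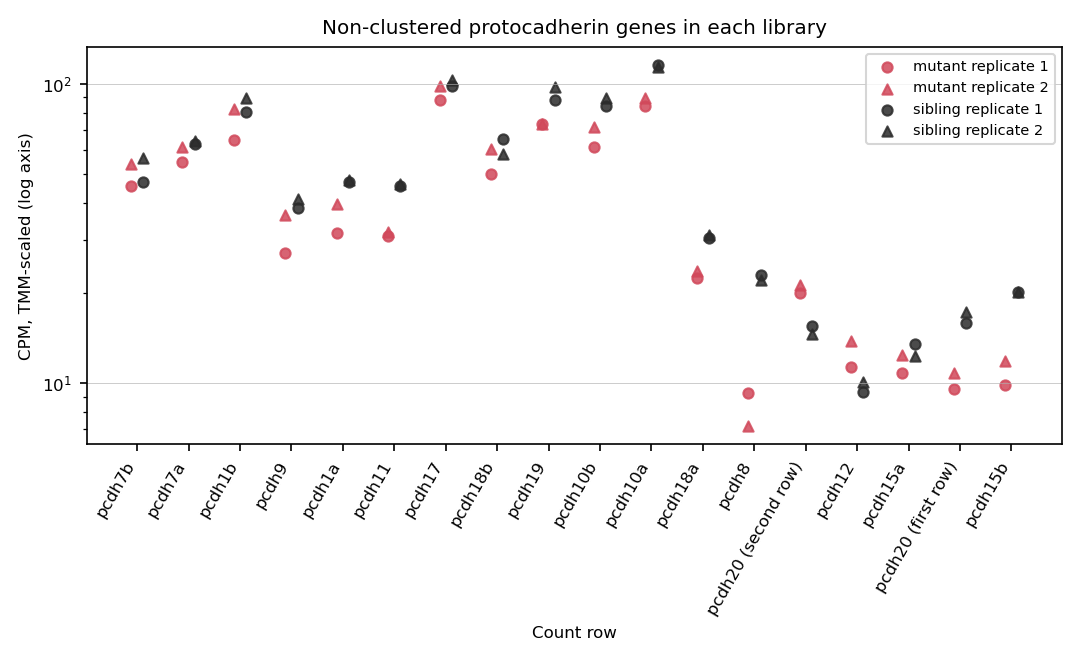
TMM-scaled CPM on a log axis for the 18 non-clustered rows in each of the 4 libraries (red, mutants; black, siblings; circles and triangles, replicates 1 and 2). The widest gaps between red and black points are those of pcdh8 and pcdh15b, red points lie above black points for pcdh12 and the second row of pcdh20, and levels of different genes are not corrected for length.

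Mutant replicate 1 ran below mutant replicate 2 across the non-clustered genes. It was the lower of the pair in 17 of 18 rows, against 49.5% of all genes tested. For the 29 distinct clustered rows it was the lower in 18. In the sibling pair, too, replicate 1 was more often the lower, in 13 of 18 non-clustered and 19 of 29 distinct clustered rows, against 50.3% of all genes. The median log2 fold change of the non-clustered rows was -0.20 without mutant replicate 1 and -0.42 without mutant replicate 2, so its sign did not depend on either library but its size did. Summed over the 47 tested neural adhesion genes outside the cadherins, the 2 mutant libraries stood at 1726 and 1931 CPM, the same order. Not every gene list shared it: neuronal genes stood at 2767 and 2806 CPM, and photoreceptor genes at 332 and 267 CPM.

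The pair pcdh15a and pcdh15b differed between the groups. The human protein is part of the tip link that gates hair cell channels; in zebrafish pcdh15a serves hearing and balance, and pcdh15b serves vision, in photoreceptors. The gene pcdh15a stood at 10.8 and 12.4 CPM in mutants and 13.5 and 12.3 CPM in siblings, which overlap, with a log2 fold change of -0.14 ± 0.15 (edgeR adjusted p = 0.453). The gene pcdh15b stood at 9.87 and 11.8 CPM in mutants and 20.1 CPM in both siblings, well apart, and fell by 0.89 ± 0.14 (edgeR adjusted p = 4.3e-06). Within a library the ratio of pcdh15a to pcdh15b was 1.09 and 1.05 in mutants and 0.669 and 0.61 in siblings, without overlap. That difference between the paralogues was not tested. Beside it, of 11 photoreceptor genes tested 11 fell, with summed levels of 332 and 267 CPM in mutants and 1221 and 1154 CPM in siblings. Of 10 hair cell genes tested 4 fell, 1 rose and 5 did not pass; the sums were 156 and 157 CPM in mutants and 207 and 210 CPM in siblings. For reference, 21.0% of all genes tested were called lower and 22.9% higher. The part of either tissue in the values of pcdh15a and pcdh15b was not tested.

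Other paralogue pairs stayed closer. Within a library, pcdh10a over pcdh10b was 1.37 and 1.25 in mutants and 1.37 and 1.28 in siblings, and pcdh7a over pcdh7b was 1.21 and 1.14 in mutants and 1.33 and 1.13 in siblings. Both ratios overlapped between the groups. The ratio of pcdh1a to pcdh1b was 0.487 and 0.481 in mutants and 0.584 and 0.535 in siblings. That of pcdh18a to pcdh18b was 0.448 and 0.391 in mutants and 0.469 and 0.534 in siblings. Neither ratio overlapped between the groups, with differences of -0.21 and -0.26 on the log2 scale, which were not tested. For pcdh18a over pcdh18b the nearest libraries of the groups (0.448 and 0.469) were closer than the replicates of either group.

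The 2 rows named pcdh20 went opposite ways. The first in the table stood at 9.52 and 10.8 CPM in mutants and 15.8 and 17.2 CPM in siblings, and fell by 0.70 ± 0.14 (edgeR adjusted p = 0.000182). The second stood at 20.04 and 21.31 CPM in mutants and 15.4 and 14.5 CPM in siblings, and was the single row of the family that rose, by 0.47 ± 0.13 (edgeR adjusted p = 0.00329). In neither row did the groups overlap. The rise was not called without sibling replicate 2 (edgeR adjusted p = 0.0902). The RefSeq table lists a gene pcdh20 and a gene pcdh20l, and which row holds which was not determined.

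The gene pcdh12, whose product is found at the junctions of endothelial cells, was the other row with both mutants above both siblings. It stood at 11.3 and 13.8 CPM in mutants and 9.35 and 10.1 CPM in siblings, with a log2 fold change of 0.37 ± 0.15 that missed the threshold (edgeR adjusted p = 0.0556). It ran from 0.21 without mutant replicate 2 (edgeR adjusted p = 0.338) to 0.49 without mutant replicate 1 (adjusted p = 0.00816), where it passed. Among 10 endothelial genes there were 4 rises and 0 falls, and 6 did not pass, against 22.9% higher and 21.0% lower over all genes. The sums of these 10 genes were 242 CPM in both mutant libraries and 209 and 211 CPM in siblings. Among them fli1a, a transcription factor gene of endothelium, was at 0.55 ± 0.11, and cdh5, the gene of vascular endothelial cadherin, at 0.16 ± 0.10 did not pass. The others that did not pass were tie1 (0.19 ± 0.11), with an estimate above 0, and 4 genes below 0. Those were tek (-0.26 ± 0.12), erg (-0.18 ± 0.21), flt1 (-0.12 ± 0.15) and pecam1 (-0.11 ± 0.14).

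Markers of neurons, the main users of protocadherins, were lower in their sum. Among 17 neuronal genes, falls numbered 10, rises 0 and genes that did not pass 7, against 21.0% lower and 22.9% higher over all genes. The neuronal genes had a median log2 fold change of -0.23. Their summed level was 2767 and 2806 CPM in mutants and 3235 and 3349 CPM in siblings, 15.4% lower. The RNA-binding protein gene elavl3 (-0.64 ± 0.09) and the synaptic genes snap25b (-0.57 ± 0.09), sypb (-0.52 ± 0.09) and vamp2 (-0.52 ± 0.09) had the smallest p among those that fell. Among those that did not pass, nefma (0.20 ± 0.09), gap43 (0.17 ± 0.11), stmn2a (0.10 ± 0.09) and snap25a (0.05 ± 0.08) had estimates above 0. Next to these, the summed δ1 genes were 15.9% lower, the δ2 genes 20.4%, the shared cluster 2 gamma value 7.57% and the cluster 1 gamma genes 34.7%. The part of neuron number or neuronal RNA in the protocadherin values was not tested. Radial glia and astroglia genes were mixed, with 4 of 7 higher and 3 lower, and the 7 genes of dividing cells rose, from 165 and 163 CPM summed in siblings to 475 and 508 CPM in mutants.

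Other neural adhesion genes gave a similar picture. The 47 tested genes were those of neurexins, neuroligins, contactins, immunoglobulin-type molecules and teneurins, and genes named lrrtm or slitrk. Of these, 30 fell, 0 rose and 17 did not pass, against 21.0% lower and 22.9% higher over all genes. Their median was -0.32, next to -0.33 for the non-clustered and -0.52 for the clustered protocadherins. The falls of smallest p were those of dscaml1 (-1.02 ± 0.11) and dscamb (-0.75 ± 0.09), which encode self-recognition molecules, cadm3 (-0.80 ± 0.11) and nrxn3b (-0.64 ± 0.10), a presynaptic neurexin gene. The wider cadherin superfamily was mixed, with 12 of 34 tested genes lower, 5 higher and 17 that did not pass (median -0.21). The epithelial cadherin gene cdh1 rose by 1.02 ± 0.09 and cdh27 by 0.90 ± 0.12, while the photoreceptor cadherin gene cdhr1a fell by 1.37 ± 0.13 and the giant cadherin gene fat1b by 1.30 ± 0.13.

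**Figure D5:**
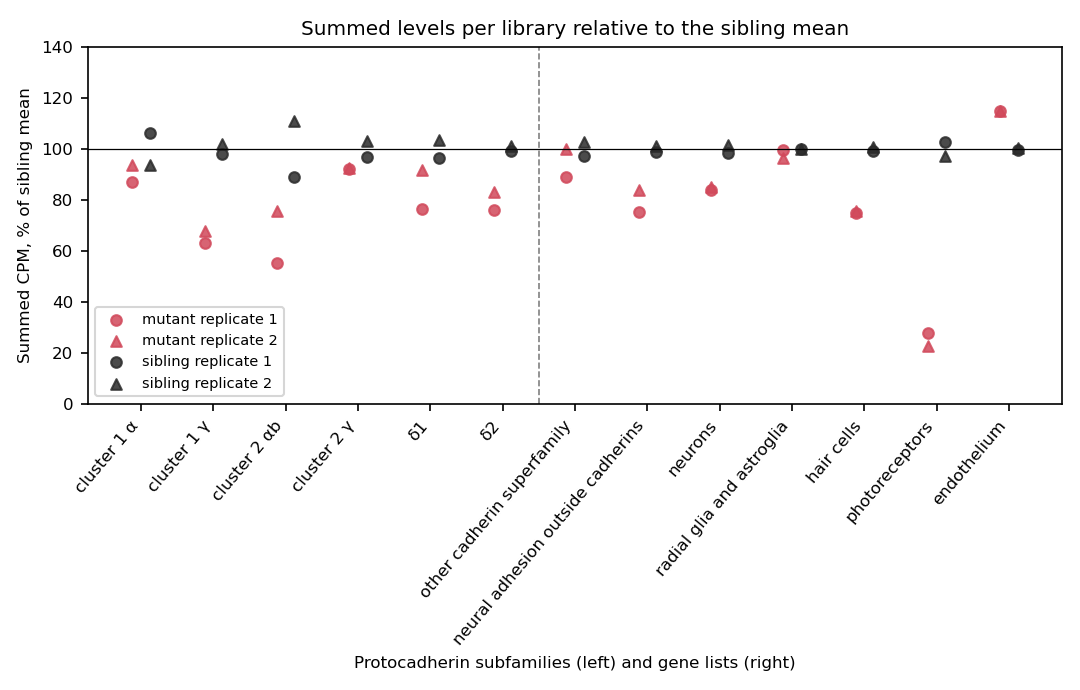
Summed TMM-scaled CPM in each library as a percentage of the sibling mean (y axis) for protocadherin subfamilies (left of the dashed line) and gene lists (right); red, mutants; black, siblings; circles and triangles, replicates 1 and 2. Cluster 1 gamma genes stood at 62.9% and 67.7% in mutants, the pcdh2ab rows at 55.0% and 75.5% and cluster 2 gamma at 92.3% and 92.6%. Neuronal markers stood at 84.0% and 85.2% and photoreceptor markers at 27.9% and 22.5%. Not drawn were pcdh2aa15, the non-clustered genes outside δ1 and δ2, and the lists of promoter regulators and of intracellular partners and proteases. The genes of dividing cells, at 290% and 311% in mutants, were not drawn either.

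Genes that act on clustered promoters in mammals were called about as often as other genes. Of 29 tested, 5 rose, 8 fell and 16 did not pass (median -0.03), against 22.9% higher and 21.0% lower over all genes. The insulator factor gene ctcf, with a log2 fold change of 0.02 ± 0.08 (edgeR adjusted p = 0.898), and the cohesin core genes smc3 (0.04 ± 0.08) and rad21a (0.05 ± 0.08) did not pass. Of other genes of the cohesin ring, its loading and its release, mau2 (-0.53 ± 0.09), a loader gene, stag1a (-0.51 ± 0.10), smc1a (-0.46 ± 0.14), rad21b (-0.40 ± 0.10), nipbla (-0.26 ± 0.09) and stag2b (-0.21 ± 0.08) fell. Those named smc1al, stag1b, stag2a, nipblb, pds5a, pds5b, wapla and waplb did not pass, with estimates between -0.17 (stag1b) and 0.13 (smc1al). The repressor gene smchd1, which in mice restrains protocadherin clusters, fell by 0.40 ± 0.11. DNA methylation genes were on the other side, with rises of uhrf1 (1.21 ± 0.11), dnmt3bb.2 (1.28 ± 0.21), dnmt3bb.3 (0.73 ± 0.19), dnmt1 (0.59 ± 0.10) and dnmt3bb.1 (0.42 ± 0.14), the same direction as the genes of dividing cells above; the part of dividing cells in these values was not tested.

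Partners inside the cell and the proteases that cut protocadherins numbered 26 tested genes. Rises were 8, falls 6, and 12 did not pass (median -0.14), next to the same 22.9% and 21.0% over all genes. Genes of the WAVE complex were called in both directions. Lower were wasf3a (-1.71 ± 0.27), wasf1 (-0.55 ± 0.14), cyfip2 (-0.47 ± 0.09) and wasf3b (-0.38 ± 0.10), and higher were wasf2 (0.40 ± 0.09), cyfip1 (0.35 ± 0.08) and brk1 (0.30 ± 0.09). The genes nckap1, abi1a, abi1b, abi2a, abi2b and abi3a did not pass. The sheddase gene adam10a rose by 0.50 ± 0.08 and ptk2bb, of a focal adhesion-type kinase that binds protocadherin tails in mammals, by 0.50 ± 0.10. Their paralogues adam10b (-0.22 ± 0.09) and ptk2ba (-0.65 ± 0.33) had estimates below 0 and did not pass.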

How the data were processed

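RNA of whole 7 dpf embryos was sequenced after NEBNext Ultra library preparation, per the labels' protocols. The authors deposited raw read counts per gene for 4 libraries. The submitters' processing notes list GRCz11 as the build and, as tools, DESeq2 1.26.0, R 4.2.2, featureCounts 2.0.1, STAR 2.7.10a and fastp 0.23.2. For the annotation, the strand setting and multi-mapping reads, the sources used here give nothing.

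The deposited counts went into edgeR 4.0.16 under R 4.3.3 (filterByExpr, which removed 3139 rows; TMM; glmQLFit and glmQLFTest), with Benjamini-Hochberg adjustment over 20097 rows and a threshold of 0.05. An SE is the absolute log2 change over the root of the F statistic, and CPM use TMM-scaled totals. Ratios of counts have exact binomial 95% intervals, which cover counting error only. Alternatives were DESeq2 1.42.0, other scalings, filters and member totals, each library left out, a replicate block and, chosen after seeing the data, identical rows counted once and plain library totals for the sums.

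Replicate numbers were not taken to pair libraries. Members and lists were chosen with earlier results of these data known. The naming rule took every non-clustered member, the clustered members deepest in their subfamily, of smallest p or nearest the threshold of 20 counts, tubgcp6, up to 4 genes of each list by p, and any regulator. The other clustered members, the endothelial genes that did not pass, adam10b, ptk2ba, further WAVE complex genes and the neuronal genes above 0 were added after their values were seen. List names were matched by symbol, and names on more than 1 row were left out.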

Additional observations from a re-analysis of the deposited data

How the results depend on the processing

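Of the 26 called rows, 13 (7 clustered, 6 non-clustered) kept the call under every refit of all genes; the cause of the other losses was not tested. With DESeq2, 9 clustered rows were lower in place of 15, and tubgcp6 was at -0.34 (adjusted p = 0.0585). Over the libraries left out in turn, 13 to 27 rows of the family were lower (7 to 13 clustered, 6 to 14 non-clustered) and 0 to 2 non-clustered rows higher. The median ran from -0.62 to -0.45 for clustered and from -0.42 to -0.20 for non-clustered rows, and tubgcp6 from -0.39 to -0.25. These fits leave 1 library in a group, assumed to vary like the other group. Without sibling replicate 2, 13 calls were lost.

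Signs turned for rows that were not called. Over the libraries left out in turn, pcdh1a3 ran from -0.82 to 0.16, pcdh1a4 from -0.19 to 0.032, pcdh1a6 from -0.43 to 0.026, pcdh1g2 from -0.37 to 0.14, pcdh2ab1 from -0.068 to 0.31 and pcdh7b from -0.20 to 0.073.

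With the replicate number as a block, 28 rows were lower and 2 higher, against 25 and 1. Over all 20097 genes tested, 4521 were lower and 4827 higher with the block, against 4225 and 4595. No source states such a pairing, and the deviations of same-numbered libraries correlated at 0.018. The 5 rows under 100 counts, all of them clustered, rest on few reads, and 2 of them, pcdh2ab5 and pcdh2ab12, were called.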
